A study of Mus musculus with 14 samples.

Results

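The TNF superfamily is a family of secreted and membrane-bound cytokines and of the receptors that bind them. All autosomal protein-coding genes of the RefSeq GRCm38 annotation whose symbol starts with Tnfsf or Tnfrsf were taken, together with Tnf, Lta, Ltb, Ltbr, Fas, Fasl, Cd27, Cd70, Cd40, Ngfr and Edar. This gave 43 genes of 20661, of which 17 encode ligands or ligand-like proteins and 26 encode receptors. Peaks of histone H3 lysine 9 crotonylation (H3K9cr) and acetylation (H3K9ac) were scored within 3 kb of either end of each gene, and genes that shared a peak were counted once. Ltb, Tnf and Lta on chromosome 17 were joined in this way, as were Tnfsf13, Tnfsfm13 and Tnfsf12 on chromosome 11, which left 39 loci.

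Most ligands of this family are trimers that cluster their receptors on the cell surface. Receptors with a death domain, such as Fas and Tnfrsf1a, can start apoptosis or necroptosis through adaptor proteins, whereas most others recruit TRAF proteins and activate NF-κB. Many pairs act between lymphocytes and antigen presenting cells, and TNF itself is known in the injured kidney as a product of macrophages and tubular cells. Acetylation and crotonylation of H3K9 are both found at the start sites of active genes.

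The study asked how ACSS2, an enzyme that makes acetyl-CoA and crotonyl-CoA from short-chain acids, bears on kidney fibrosis. ChIP-seq was performed on whole kidneys of wild-type (WT) mice and of mice with a CRISPR/Cas9 deletion of ACSS2 in all tissues (ACSS2-/-), either as controls or after unilateral ureteric obstruction (UUO), in which the left ureter is tied. The methods describe young adult C57BL/6J mice a few weeks old and a sham operation, but the labels call the control animals only controls, and the time after surgery was not given for these kidneys in the sources used here. Of 14 libraries, 8 were of H3K9cr, with 2 in each of WT control, ACSS2-/- control, WT UUO and ACSS2-/- UUO. The other 6 were of H3K9ac, with 2 for WT UUO, 2 for ACSS2-/- UUO, 1 for WT control and 1 for ACSS2-/- control. The labels give a separate catalogue number of the same antibody to each group, and whether the antibody changed is not known. According to the paper H3K9ac was profiled in the kidneys used for H3K9cr, but the labels do not say which libraries share a kidney. Spreads and p-values measure only the difference between these libraries.

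The lists held between 15988 peaks (H3K9ac, WT UUO replicate 1) and 45014 peaks (H3K9cr, ACSS2-/- control replicate 1). Peaks have a position and no height, and the depth of sequencing is unknown, so the covered length, which is the number of bases of a locus under peaks, is the value compared. Covered length moves with how much was called in a library: the median peak was 812 to 1044.5 bp long. In 4 lists the names of the peaks carry another number than the label. These are H3K9cr of WT UUO replicate 1 and of ACSS2-/- UUO replicate 1, both named 3, and H3K9ac of ACSS2-/- UUO replicates 1 and 2, named 2 and 3. The genotype and the operation in these names are those of the labels. In ACSS2-/- UUO the lists named 3 had 14 (H3K9cr) and 13 (H3K9ac) peaks on the Y chromosome and those named 2 had 0 and 0, while all other lists had 0 to 5. The sex of these mice was not given in the sources used here. Results without these lists are given where they differ.

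In H3K9cr, more genes of the family carried a peak after UUO than in control kidneys. A peak was found at 34 and 33 of the 43 genes in WT UUO, at 32 and 27 in ACSS2-/- UUO, at 22 and 26 in WT control and at 26 and 25 in ACSS2-/- control. Counted by gene, every UUO library was above every control library, and the 4 UUO libraries reached 62.8% to 79.1% of the family against 51.2% to 60.5% in the 4 controls. With genes that share a peak counted once the groups overlapped, with 30, 29, 28 and 23 loci in UUO (WT, then ACSS2-/-) and 20, 24, 23 and 23 in control. Over all autosomal protein-coding genes the share hardly moved, from 60.8% to 64.1% in control and from 60.8% to 64.1% in UUO. In H3K9ac the family had 24 and 28 genes with a peak in WT UUO, 25 and 27 in ACSS2-/- UUO, 27 in WT control and 29 in ACSS2-/- control, and these groups overlapped. Over all genes the H3K9ac share was 60.8% and 64.3% in control and 55.0%, 57.5%, 56.1% and 61.9% in UUO (WT, then ACSS2-/-).

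**Figure D1:**
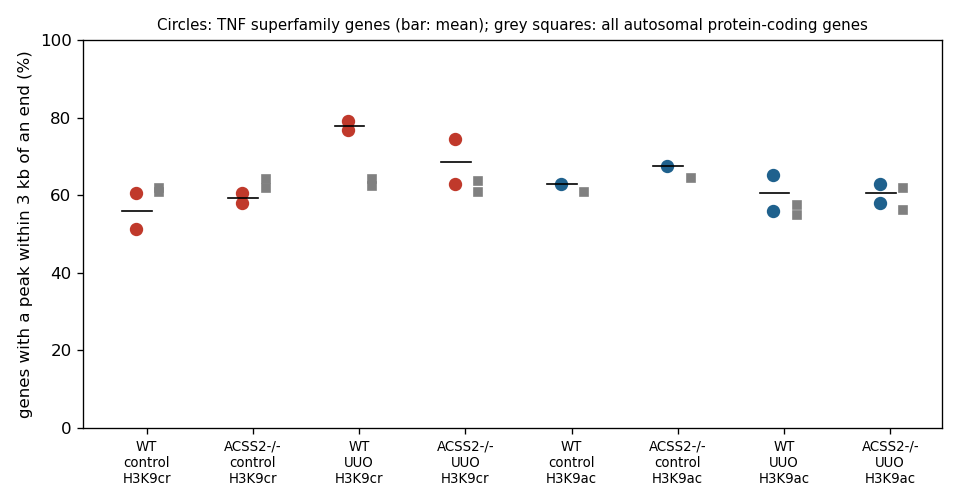
Share of genes with a peak within 3 kb of an end (vertical axis, percent) in each genotype, operation and mark. Circles are libraries scored over the 43 TNF superfamily genes (red H3K9cr, blue H3K9ac; the bar is the mean, of 1 library in each H3K9ac control group), and grey squares are the same libraries over all 20661 genes; in H3K9cr the 2 WT UUO circles lie at 79.1% and 76.7%.

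Across all libraries, 14 loci had a peak in every list. These were the ligand loci Ltb/Tnf/Lta, Tnfsf10 and Tnfsf13/Tnfsfm13/Tnfsf12 and the receptors Tnfrsf1a, Tnfrsf1b, Ltbr, Fas, Tnfrsf21, Tnfrsf11a, Tnfrsf12a, Tnfrsf14, Tnfrsf17, Tnfrsf18 and Cd27. No list had a peak within 3 kb of Tnfsf4, Tnfsf11, Cd70, Tnfrsf4, Tnfrsf13b or Tnfrsf13c, most of which act on activated T cells, B cells or bone. The other 19 loci had a peak in some lists. Counted gene by gene, 37.2% of the family had a peak in all lists against 50.9% of all genes, 48.8% in some against 20.3%, and 14.0% in none against 28.8%.

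**Figure D2:**
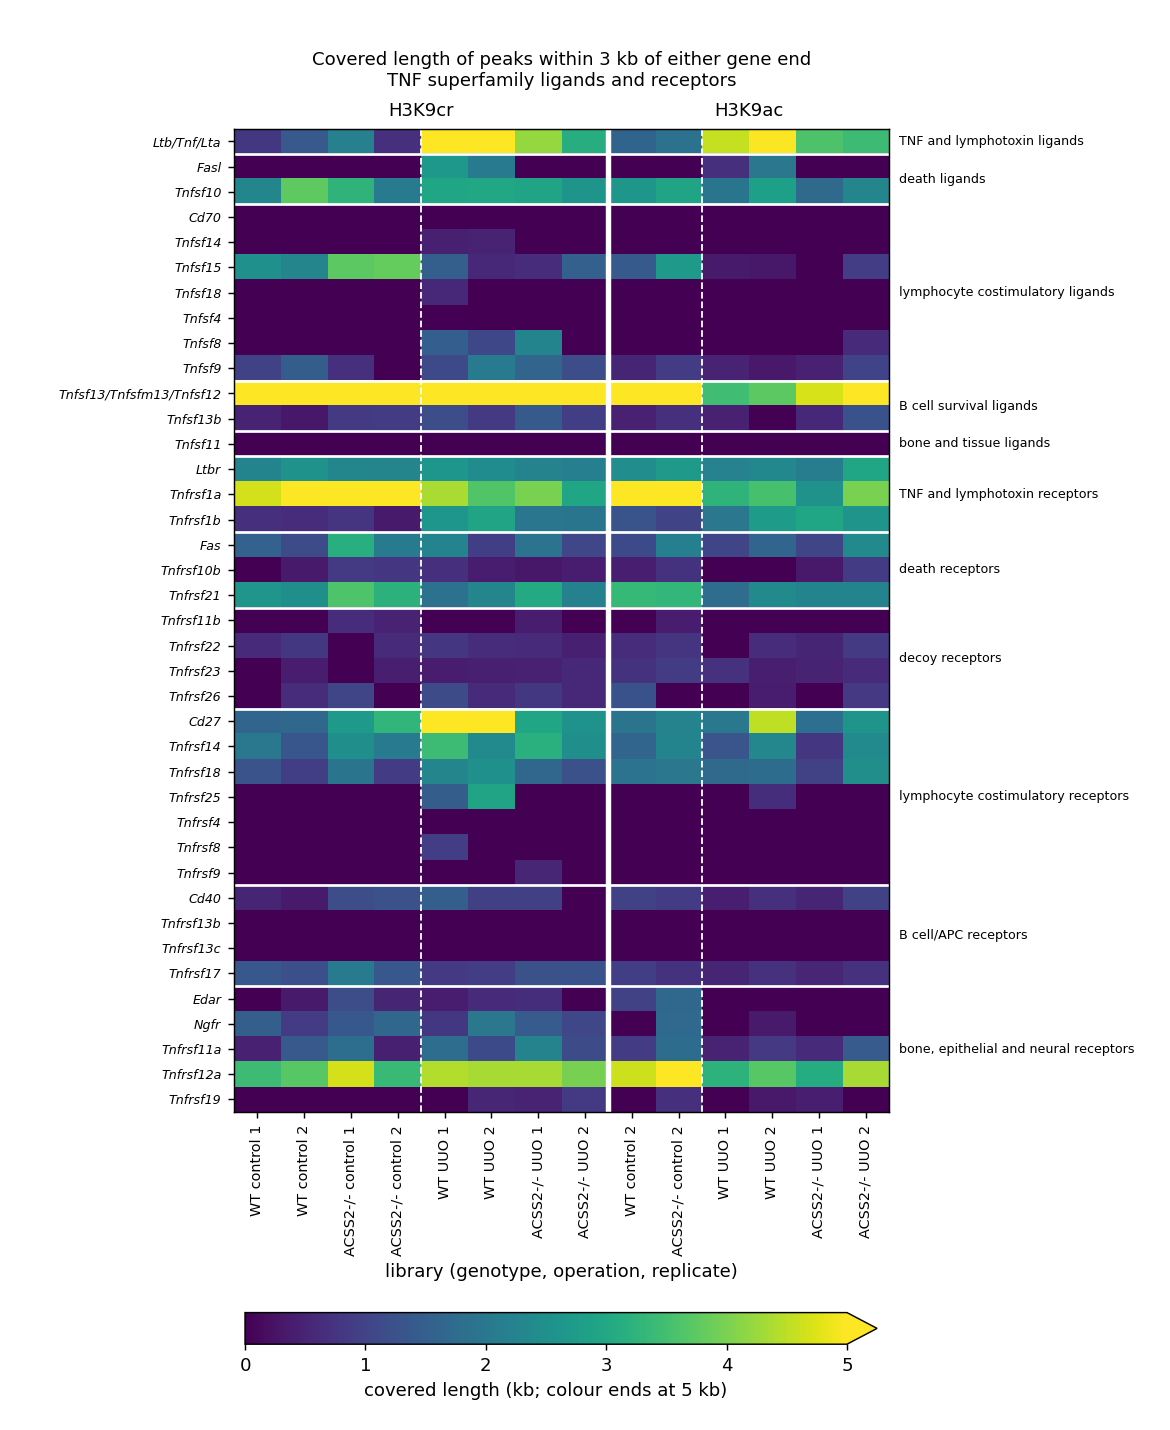
Covered length (colour, kb, ending at 5 kb) of each of the 39 loci (rows, grouped by role) in each library (columns; H3K9cr left of the thick line and H3K9ac right of it, with the broken line between control and UUO). Fasl, Tnfrsf25 and Tnfsf14 have H3K9cr peaks in the WT UUO columns and none in the other H3K9cr columns.

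The first comparison asks which members differed in H3K9cr between 4 UUO and 4 control libraries. The mean number of loci with a peak was 27.5 ± 3.11 in UUO and 22.5 ± 1.73 in control (SD, n = 4 each). Mean covered length was higher in UUO for 25 genes and lower for 12, or 58.1% and 27.9%, against 21.9% and 47.7% of all genes. The median difference was 101.5 bp in the family and 0.0 bp over all genes. No locus had a peak in all UUO libraries and in no control library, a pattern met by 0.45% of all genes, and none had the opposite pattern, met by 0.266%. When genes were counted singly, Lta was the 1 gene of the first kind, through the peak at the start of Tnf that lies within 3 kb of it. Covered length was longer in every UUO library than in any control library for 3 genes in 2 loci, Tnf, Lta and Tnfrsf1b. Over all genes 1.62% met this pattern. Covered length was shorter in every UUO library for 2 genes, Tnfsf15 and Tnfrsf1a, as it was for 9.02% of all genes. In the exact two-sided permutation test over libraries, 4 loci (Ltb/Tnf/Lta, Tnfrsf1b, Tnfsf15 and Tnfrsf1a) had p = 0.0286, the smallest p that this design allows. With Benjamini-Hochberg adjustment over all genes none passed, the lowest adjusted p being 0.269.

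Within each genotype the same contrast rests on 2 libraries against 2. In WT, 4 loci had peaks in both UUO libraries and in neither control: Fasl, Tnfsf14, Tnfsf8 and Tnfrsf25. Counted by gene these were 6, with Tnf and Lta, where 2.07% of all genes met the pattern. In ACSS2-/-, Tnfrsf19 was the 1 such locus (2 genes with Lta), where 0.779% of all genes met it. Mean covered length was higher in UUO for 27 genes and lower for 8 in WT, and higher for 17 and lower for 15 in ACSS2-/-. Of all genes, 33.4% were higher and 34.0% lower in WT, and 14.1% higher and 53.7% lower in ACSS2-/-. The difference between these contrasts was not tested.

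For H3K9ac, 4 UUO libraries were compared with 2 controls. The H3K9cr and H3K9ac comparisons share no library, whereas those between genotypes and between marks reuse the UUO libraries. The covered length was generally shorter after UUO, in the family and elsewhere: it was lower for 24 genes and higher for 9, with a median difference of -144.75 bp, against -352.5 bp over all genes. These are 55.8% lower and 20.9% higher, against 62.6% and 4.61% of all genes. The mean number of loci with a peak was 22.0 ± 1.83 in UUO (SD, n = 4) and 24.0 ± 1.41 in control (SD, n = 2). With lists of equal length this difference changed sign, to more loci in UUO than in control. Edar, the receptor of ectodysplasin in developing skin appendages, had a peak in both controls and in no UUO library, as did 1.13% of all genes, though not with lists of equal length. No member had the opposite pattern (0.092% of all genes). Longer covered length in every UUO library was seen at 4 genes, Ltb, Tnf, Lta and Tnfrsf1b, where 0.247% of all genes met it. These genes form 2 loci, as Ltb, Tnf and Lta were joined. Shorter covered length in every UUO library was seen at 7 genes (Edar, Tnfrsf17, Tnfrsf12a, Tnfrsf21, Tnfsf15, Tnfrsf1a and Tnfrsf23), where 30.6% of all genes met it. The exact permutation test cannot go below p = 0.0667 with these numbers, and the lowest adjusted p was 0.28.

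In UUO kidneys the effect of the ACSS2 deletion was examined with 2 libraries against 2, where an exact permutation test cannot go below p = 0.333, and the calls below are therefore descriptions. In H3K9cr, ACSS2-/- kidneys had 25.5 ± 3.54 loci with a peak and WT kidneys 29.5 ± 0.707 (SD, n = 2 each). Per library these were 28 and 23 in ACSS2-/- and 30 and 29 in WT. The size of the difference thus depended on which ACSS2-/- library was kept. Fasl, Tnfsf14 and Tnfrsf25 had peaks in both WT libraries and in neither ACSS2-/- library, a pattern met by 0.644% of all genes. The opposite pattern, met by 0.295% of all genes, was met by no member. Covered length was shorter in both ACSS2-/- libraries than in either WT library for 10 genes, or 23.3% of the family against 16.8% of all genes. It was longer for 2 genes, Tnfrsf17 and Tnfrsf23, against 5.62% of all genes. Mean covered length was lower for 58.1% of the family and for 44.2% of all genes. With the lists that carry another number left out, 1 library remained on each side, and 6 loci had a peak in the WT library alone, as did 3.45% of all genes. When each list was cut to its longest 50% of peaks, Fasl was the 1 locus left with peaks in both WT libraries and in neither ACSS2-/- library, and the difference in the number of loci with a peak shrank from -4.0 to -0.5.

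In H3K9ac of UUO kidneys both genotypes had a mean of 22.0 loci with a peak. Fasl again had peaks in both WT libraries and in neither ACSS2-/- library, as did 0.0774% of all genes. Tnfrsf10b, the death receptor for Tnfsf10, had the opposite pattern, as did 0.949%, but not when lists were cut to equal length or to the longest 50% of peaks. Covered length was longer in both ACSS2-/- libraries for 5 genes in 3 loci, against 19.0% of all genes. It was shorter for 3 genes in 2 loci (Fasl, Ltb and Tnf), against 1.68%. Both ACSS2-/- lists of this comparison have names with another number, so that it has no value without them.

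In control kidneys H3K9cr of ACSS2-/- covered more than that of WT at many genes, and the ACSS2-/- lists held more peaks (45014 and 37456) than those of WT (32945 and 36485). Covered length was longer in both ACSS2-/- libraries for 14 genes of the family in 12 loci, against 26.2% of all genes. It was shorter for 1 gene, Tnfsf9, against 3.32%. Tnfrsf11b, the decoy receptor osteoprotegerin, had a peak in both ACSS2-/- libraries and in neither WT library, as did 0.692% of all genes. These peaks were short, and this pattern too was lost when lists were cut to equal length or to the longest 50%. No member had the opposite pattern (0.136%).

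H3K9cr was then set against H3K9ac in UUO kidneys, with 4 libraries each. The test below treats these libraries as independent, although per the paper the marks share kidneys. Mean covered length was higher in H3K9cr for 34 genes and lower for 3, or 79.1% and 6.98%, against 49.3% and 19.1% of all genes. On average 27.5 loci had an H3K9cr peak and 22.0 an H3K9ac peak, but this gap was gone (0.0 loci) when every list was cut to its 15988 longest peaks. No member had a peak in all libraries of one mark and in none of the other, which was seen for 0.499% of all genes in favour of H3K9cr and for 0.00968% in favour of H3K9ac. Ngfr, Tnfrsf17 and Tnfsf9 had longer covered length in every H3K9cr library, where 6.47% of all genes did, and no member had the reverse, where 1.15% did. These 3 loci had p = 0.0286 in the exact permutation test and an adjusted p of 0.375. Ngfr, the low-affinity neurotrophin receptor, was covered over 813 and 1984 bp in WT UUO and 1444 and 1069 bp in ACSS2-/- UUO for H3K9cr, and for H3K9ac over 352 bp in WT UUO replicate 2 alone. Control kidneys had Ngfr covered over 880 to 1644 bp in all 4 H3K9cr libraries. In H3K9ac controls it was covered over 1707 bp in ACSS2-/- and was without a peak in WT, so that the marks overlapped in control.

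Among the ligands, the cluster of Ltb, Tnf and Lta (chr17:35194507-35205578, mm10) had the largest difference in mean covered length of H3K9cr between UUO and control, 3729 bp longer in UUO. These genes encode lymphotoxin beta, TNF and lymphotoxin alpha. H3K9cr covered 6461 and 6194 bp in WT UUO, 4213 and 3119 bp in ACSS2-/- UUO, 817 and 1390 bp in WT control and 2185 and 679 bp in ACSS2-/- control. The UUO and control libraries did not overlap, and both ACSS2-/- UUO libraries were below both WT UUO libraries. For H3K9ac the covered length was 4558 and 4972 bp in WT UUO, 3594 and 3434 bp in ACSS2-/- UUO, 1603 bp in WT control and 1880 bp in ACSS2-/- control, in the same order.

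The genes of the cluster were also separated by counting only bases under peaks within each annotated gene, a choice made after seeing the data. H3K9cr over Tnf itself (chr17:35199367-35202007) was absent in all 4 control libraries and covered 2234 and 1422 bp in WT UUO and 2018 and 363 bp in ACSS2-/- UUO. By this count Tnf was the 1 member with peaks in all UUO libraries and in no control, as were 0.44% of all genes. H3K9ac over Tnf was present in both controls, with 369 bp in WT and 400 bp in ACSS2-/-, and covered 2076 and 1531 bp in WT UUO and 1612 and 1459 bp in ACSS2-/- UUO. Ltb had H3K9cr in every library, with 817, 1390, 1557 and 679 bp over the gene in controls and 1731 to 1799 bp in UUO. Peaks over Lta were found in 2 libraries, both of H3K9cr in WT UUO (637 and 344 bp).

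The promoters of the cluster are printed because peaks reached them only in part of the libraries. RefSeq promoters (mm10, 250 bases before to 50 after the start, 5′ to 3′) were found for 34 of the 43 genes. They were searched on both strands for GGANTTTCC, named here for NF-kB, TGANTCA for AP-1, GGAAGT for ETS and GTTAAT for HNF1, and matches are in capitals. Of the 38 promoters of these genes, 2.63% held the NF-kB, 18.4% the AP-1, 21.1% the ETS and 5.26% the HNF1 motif. Over all promoters the shares were 1.31%, 7.06%, 25.0% and 6.23%, and the differences were not tested. ETS matches also lie at Tnfrsf4 and Tnfrsf13b, which had no peak within 3 kb of an end. The promoter of Tnf (chr17:35201958-35202257, minus strand) lay wholly under H3K9cr peaks in all 4 UUO libraries and under none in control. H3K9ac covered 0 and 300 of its bases in WT UUO, 300 and 30 in ACSS2-/- UUO and none in control. It holds GGAAGT, found in 25.0% of the 20084 promoters. That of Ltb (chr17:35194257-35194556, plus strand) holds the 1 NF-kB match of the family, a motif found in 1.31% of promoters, and was wholly under H3K9cr in WT UUO, over 25 and 0 bases in ACSS2-/- UUO and in no control. H3K9ac covered 0 and 300 bases of the Ltb promoter in WT UUO, 0 and 2 in ACSS2-/- UUO and none in control. A match is a description of the sequence, and binding was not analysed here.
Tnf: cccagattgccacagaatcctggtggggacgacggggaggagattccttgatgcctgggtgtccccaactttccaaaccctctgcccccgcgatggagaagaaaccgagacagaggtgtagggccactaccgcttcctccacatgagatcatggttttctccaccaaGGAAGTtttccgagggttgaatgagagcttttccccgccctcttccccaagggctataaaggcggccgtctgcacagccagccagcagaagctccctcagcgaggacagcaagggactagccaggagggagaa
Ltb: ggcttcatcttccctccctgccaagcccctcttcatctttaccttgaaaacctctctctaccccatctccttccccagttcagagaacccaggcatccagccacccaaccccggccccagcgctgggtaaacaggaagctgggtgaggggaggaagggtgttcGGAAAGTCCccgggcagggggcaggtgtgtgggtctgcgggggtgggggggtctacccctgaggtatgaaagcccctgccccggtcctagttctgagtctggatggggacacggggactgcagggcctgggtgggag

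Fasl and Tnfsf10 are ligands that start apoptosis, and Fasl is made mainly by cytotoxic T cells and NK cells. At Fasl (chr1:161780691-161788495) H3K9cr covered 2657 and 2057 bp in WT UUO, and H3K9ac 677 and 1983 bp. The other 10 libraries, including all 4 of ACSS2-/- UUO, had no peak within 3 kb of the gene. The peaks lay at the start, for example chr1:161786875-161788931 in H3K9cr of WT UUO replicate 2. This pattern held for H3K9cr under every alternative tried. Fasl was the 1 member with it in both marks, although for H3K9ac it was lost with a window of 1 kb and with the longest 50% of peaks. Its promoter (chr1:161788446-161788745, minus strand) is printed because H3K9cr peaks in both WT UUO libraries covered all 300 bases, while H3K9ac peaks stopped short of it. The capitals mark an ETS match on the opposite strand.
Fasl: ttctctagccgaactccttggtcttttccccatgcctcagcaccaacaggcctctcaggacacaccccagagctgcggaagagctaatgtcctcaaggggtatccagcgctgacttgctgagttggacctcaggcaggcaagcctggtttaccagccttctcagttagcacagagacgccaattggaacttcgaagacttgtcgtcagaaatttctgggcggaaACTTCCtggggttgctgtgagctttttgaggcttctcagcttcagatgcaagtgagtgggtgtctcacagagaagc
Tnfsf10 (TRAIL) had peaks in every library, with 2582 to 2989 bp of H3K9cr in UUO and 2043 to 3766 bp in control, so that the groups overlapped.

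Of the 7 ligands that costimulate lymphocytes, 5 had no peak in any control library. Tnfsf4 and Cd70 had none in UUO either, while Tnfsf8, Tnfsf14 and Tnfsf18 had peaks in some UUO libraries. Over all genes 28.8% had no peak in any list, and the share without one in the controls alone was not counted. Tnfsf8 (CD30 ligand) was covered by H3K9cr over 1498 and 1087 bp in WT UUO, over 2254 bp in ACSS2-/- UUO replicate 1 and not at all in replicate 2. Its H3K9ac was found in ACSS2-/- UUO replicate 2 alone (608 bp). Tnfsf14 (LIGHT) had short H3K9cr peaks in WT UUO, of 447 and 482 bp, which did not overlap: chr17:57188492-57188938 lies beyond the far end of the gene and chr17:57193585-57194066 near its start. Neither gene had an H3K9ac peak in WT UUO. Tnfsf18 had 1 peak, of 548 bp, in H3K9cr of WT UUO replicate 1. Tnfsf9 (4-1BB ligand) had H3K9cr over 1094, 2045, 1625 and 1182 bp in the 4 UUO libraries and over 0 to 1483 bp in control.

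Tnfsf15 (TL1A), which endothelial cells make and which binds Tnfrsf25, went the other way. H3K9cr covered 2506 and 2275 bp in WT control and 3748 and 3811 bp in ACSS2-/- control, against 1518 and 584 bp in WT UUO and 642 and 1526 bp in ACSS2-/- UUO. H3K9ac covered 1421 and 2708 bp in the controls and 367, 328, 0 and 915 bp in UUO. In both marks every control library lay above every UUO library, and the peaks scored were within 3 kb of the start (chr4:63745059). With a window of 1 kb the mean difference of H3K9cr went from -2017.5 to -658.5 bp and the groups overlapped. Further peaks lie inside the gene, over which H3K9cr covered 2802 to 4415 bp in control and 344 to 1488 bp in UUO. The promoter (chr4:63745010-63745309, minus strand) is shown for this start, and its capitals mark an HNF1 match on the opposite strand, a motif present in 6.23% of promoters. H3K9cr covered all 300 bases in each control and 300, 290, 177 and 88 bases in UUO (WT, then ACSS2-/-).
Tnfsf15: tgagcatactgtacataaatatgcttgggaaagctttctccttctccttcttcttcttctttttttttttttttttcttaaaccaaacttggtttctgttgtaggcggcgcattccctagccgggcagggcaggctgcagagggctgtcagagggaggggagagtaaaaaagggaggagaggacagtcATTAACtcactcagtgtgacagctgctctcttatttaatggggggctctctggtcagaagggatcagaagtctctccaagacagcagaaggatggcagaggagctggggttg
The kidney holds other cells whose share changes in UUO, and in whole tissue fewer cells of a type and less mark per cell cannot be told apart. Of 9 proximal tubule markers, 8 or 9 had an H3K9cr peak in control and 3 to 7 in UUO. Their summed covered length was 19712 to 32108 bp in H3K9cr controls and 4778, 1940, 5928 and 6442 bp in H3K9cr UUO libraries, with Slc34a1, Lrp2, Slc5a12, Miox or Cubn the most covered gene. Slc5a12 had H3K9cr peaks in all controls and in no UUO library, as did 0.266% of all genes. In H3K9ac the sum was 21382 and 27509 bp in control and 2468, 2536, 8914 and 7028 bp in UUO. Of 6 endothelial markers, 4 to 6 had a peak, with a sum of 8187 to 17149 bp in H3K9cr controls and 9550, 3951, 9440 and 5130 bp in UUO. Egfl7 was the most covered of them in all but 1 of these libraries, and Tie1 was without a peak in both ACSS2-/- UUO libraries. Emcn went the other way, with H3K9cr over 2455 and 1507 bp in ACSS2-/- UUO against 886 and 1030 bp in WT UUO. Cdh5 and Kdr had shorter H3K9cr in every UUO library than in any control, as did 9.02% of all genes. In H3K9ac all 6 endothelial markers were shorter in every UUO library than in any control, as were 30.6% of all genes. Their H3K9ac sums in UUO were 6577 and 5011 bp in WT and 5131 and 11664 bp in ACSS2-/-, against 19602 and 21195 bp in control. Their part in the values of Tnfsf15 was not tested.

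The ligands of B cell survival and tissue repair changed little in presence. Tnfsf13b (BAFF) had an H3K9cr peak in every library, over 846 to 1422 bp in UUO and 328 to 867 bp in control. The joined locus of Tnfsf13 (APRIL), Tnfsfm13 and Tnfsf12 (TWEAK) on chromosome 11 was covered by H3K9cr over 6590 and 6720 bp in WT UUO, 9090 and 5298 bp in ACSS2-/- UUO, 6953 and 7459 bp in WT control and 8833 and 8431 bp in ACSS2-/- control. For H3K9ac it was 3467 and 3736 bp in WT UUO and 4704 and 7604 bp in ACSS2-/- UUO, against 6038 and 8823 bp in the WT and ACSS2-/- controls. An end of Senp3 lies in the same windows. Tnfsf11 (RANKL) had no peak.

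Of the receptors for TNF and lymphotoxin, Tnfrsf1b was covered more in UUO. Tnfrsf1b (TNFR2; chr4:145212368-145246870), the TNF receptor without a death domain, was covered by H3K9cr over 2622 and 2928 bp in WT UUO, 1955 and 1934 bp in ACSS2-/- UUO, 675 and 642 bp in WT control and 774 and 364 bp in ACSS2-/- control. H3K9ac covered 1991 and 2740 bp in WT UUO, 2957 and 2582 bp in ACSS2-/- UUO, 1292 bp in WT control and 1030 bp in ACSS2-/- control. UUO and control did not overlap in either mark, but with a window of 1 kb the mean difference of H3K9ac went from 1406.5 to 33.75 bp and the groups overlapped. Every library had a peak within 118 bp of the start site, and in UUO this peak was longer. ACSS2-/- UUO lay below WT UUO in H3K9cr but not in H3K9ac.

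Tnfrsf1a (TNFR1; chr6:125349723-125362483) had a covered length of H3K9cr of 4360 and 3642 bp in WT UUO and 3999 and 2964 bp in ACSS2-/- UUO, against 4677 and 5150 bp in WT control and 5690 and 5064 bp in ACSS2-/- control. The separation in H3K9cr came from the far end of the gene, where an end of Plekhg6 lies. There H3K9cr covered 980 to 1824 bp in all controls and none of the UUO libraries. Within 3 kb of the Tnfrsf1a start it covered 3532 to 3866 bp in control and 2964 to 4360 bp in UUO, which overlapped. The mean difference, -1404 bp over both ends, was 65.75 bp at the start alone and 818.5 bp over the gene itself. H3K9ac also separated at the start, with 3252, 3541, 2558 and 3332 bp in UUO (WT, then ACSS2-/-) and 3990 and 4320 bp in control, and over both ends its mean difference was -3196.5 bp. Ltbr, the receptor of lymphotoxin, was the steadiest of the 3, with 2157 to 2624 bp of H3K9cr in UUO and 2252 to 2570 bp in control. Its peak at the start overlaps Scnn1a in all 14 libraries.

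Among the death receptors, Fas, the receptor of Fasl, had peaks over its start in every library. H3K9cr covered 2261 and 935 bp in WT UUO, 1898 and 1070 bp in ACSS2-/- UUO, 1563 and 1148 bp in WT control and 3149 and 2085 bp in ACSS2-/- control, and these groups overlapped. Tnfrsf21 (DR6) was covered over 1871, 2278, 3055 and 2191 bp in the H3K9cr UUO libraries (WT, then ACSS2-/-) and 2604, 2494, 3630 and 3218 bp in control, with 1 UUO library inside the control range. Its H3K9ac was shorter in every UUO library, with 1786, 2377, 2262 and 2248 bp against 3352 and 3317 bp in control. Tnfrsf10b had H3K9cr over 672 and 388 bp in WT UUO and 328 and 388 bp in ACSS2-/- UUO, and over 0, 364, 847 and 783 bp in control (WT, then ACSS2-/-). Its H3K9ac in UUO was seen in ACSS2-/- alone (341 and 863 bp), but both H3K9ac controls had it too (416 bp in WT and 724 bp in ACSS2-/-).

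Among the receptors that costimulate lymphocytes, Cd27, Tnfrsf25 and Tnfrsf18 had shorter H3K9cr in ACSS2-/- UUO than in WT UUO. Cd27 (chr6:125232620-125237136), a receptor of T and B cells, was covered by H3K9cr over 5105 and 5466 bp in WT UUO, 2961 and 2546 bp in ACSS2-/- UUO, 1632 and 1674 bp in WT control and 2686 and 3292 bp in ACSS2-/- control. Both WT UUO libraries stood above the rest, and ACSS2-/- UUO overlapped ACSS2-/- control. Part of this length belongs to a peak at the far end that every library had and that reaches into Tapbpl. Within 3 kb of the Cd27 start, H3K9cr covered 2282 and 2427 bp in WT UUO, 1159 and 0 bp in ACSS2-/- UUO, 0 bp in both WT controls and 516 and 522 bp in ACSS2-/- controls. H3K9ac there was 446 and 1750 bp in WT UUO, 369 and 323 bp in ACSS2-/- UUO and absent in both controls.

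Tnfrsf25 (DR3; chr4:152115528-152120119), the receptor of Tnfsf15 on T cells, had H3K9cr over 1474 and 2912 bp in WT UUO and H3K9ac over 661 bp in WT UUO replicate 2. No other library had a peak there. At its start alone H3K9cr covered 875 and 1448 bp, and the rest lay at the far end, where Espn overlaps the peaks. Tnfrsf14 (HVEM), a receptor of Tnfsf14, had H3K9cr over 3420 and 2377 bp in WT UUO, 3178 and 2481 bp in ACSS2-/- UUO, and 1341 to 2490 bp in control, which overlapped. Its H3K9ac in UUO covered 1317 and 2319 bp in WT and 790 and 2394 bp in ACSS2-/-, with a lower mean. Tnfrsf18 (GITR) was covered by H3K9cr over 2276 and 2507 bp in WT UUO and 1643 and 1244 bp in ACSS2-/- UUO, with 869 to 1929 bp in control. Within 3 kb of an end, Tnfrsf8 had 1 peak, of 909 bp, in H3K9cr of WT UUO replicate 1, and Tnfrsf9 had 1, of 542 bp, in H3K9cr of ACSS2-/- UUO replicate 1. Over the gene itself, Tnfrsf8 had H3K9cr in 3 control libraries (530, 2144 and 748 bp) and 3 UUO libraries (3493, 1138 and 1544 bp), and Tnfrsf9 had H3K9ac in WT UUO replicate 2 (326 bp).

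**Figure D3:**
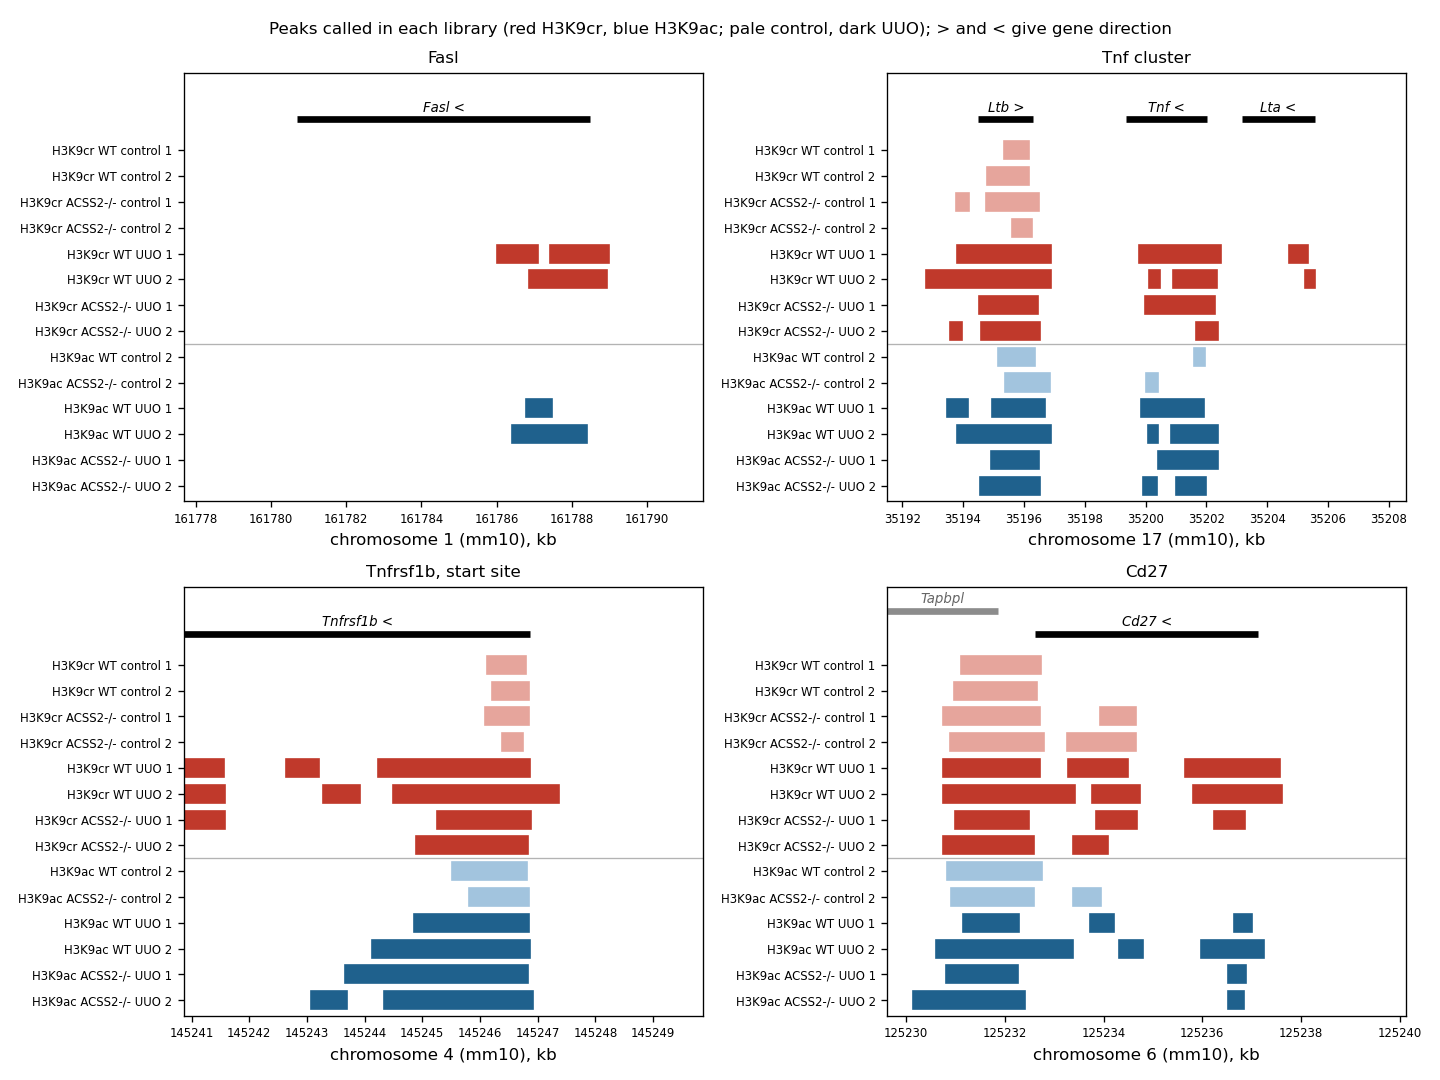
Peaks called in each library (rows, red H3K9cr and blue H3K9ac, pale for control and dark for UUO) along the mm10 chromosome (horizontal axis, kb) at Fasl, the Tnf cluster, the start of Tnfrsf1b and Cd27; black bars are member genes with their direction and the grey bar is another gene. Fasl has peaks in the 4 WT UUO rows, while the peak next to Tapbpl is present in all 14 rows.

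In H3K9cr, the summed length of markers of T and NK cells was largest in WT UUO. Of 10 such genes, 9 and 8 had an H3K9cr peak in WT UUO, 4 and 5 in ACSS2-/- UUO and 3 to 4 in control. Their summed covered length of H3K9cr was 14793 and 16233 bp in WT UUO, 3215 and 2696 bp in ACSS2-/- UUO and 1595 to 3007 bp in control. Cd3d was the most covered gene in WT UUO, with 4460 and 4959 bp, and in ACSS2-/- UUO it had 615 and 402 bp. Cd3e, which had 1336 and 1821 bp in WT UUO, had no H3K9cr peak in ACSS2-/- UUO or in control, and neither did Cd2. Over all genes, 0.644% had H3K9cr peaks in both WT UUO libraries and in neither of ACSS2-/- UUO. Cd8a had 0 and 360 bp in WT UUO, Prf1 751 and 0 bp and Gzmb 1755 and 0 bp. Prf1 also had 294 bp in WT control replicate 2. Cd4 did not follow Cd3e, with 1217 and 914 bp in WT UUO, 552 and 675 bp in ACSS2-/- UUO and 926 to 1364 bp in control. Its H3K9ac was shorter in every UUO library, as for 30.6% of all genes. In H3K9ac the sum was 406 and 13877 bp in WT UUO, 3898 and 6776 bp in ACSS2-/- UUO, and 1351 and 2289 bp in the controls. Of these genes 1 and 6 had an H3K9ac peak in WT UUO and 5 and 6 in ACSS2-/- UUO, so that H3K9ac did not separate the genotypes. The part of T and NK cells in the values of Fasl, Tnfrsf25, Tnfsf14 and Cd27 was not tested.

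Macrophage and myeloid markers had a larger summed length of H3K9cr in UUO of both genotypes. Of 10 genes, 9 and 8 had an H3K9cr peak in WT UUO, 8 and 6 in ACSS2-/- UUO and 2 to 3 in control. The summed covered length of H3K9cr was 35533 and 26100 bp in WT UUO, 26449 and 11886 bp in ACSS2-/- UUO and 2165 to 6055 bp in control. That of H3K9ac was 7540 and 14395 bp in WT UUO, 7752 and 31266 bp in ACSS2-/- UUO and 4549 and 9215 bp in the controls. Genes were summed singly, and in WT UUO replicate 1 C1qa, C1qb and C1qc gave 5802, 6145 and 8719 bp of the H3K9cr sum. C1qc, a complement gene of macrophages, was the most covered in all 4 H3K9cr UUO libraries. C1qa, C1qb, C1qc and Tyrobp, each counted singly, had H3K9cr peaks in all UUO libraries and in no control, as did 0.45% of all genes. The other 6 markers did not separate UUO from control. Among them Lyz2 had H3K9cr in WT UUO alone (1413 and 978 bp), and Cd68 in ACSS2-/- covered 3000 and 1755 bp in UUO against 2778 and 2811 bp in control. In H3K9ac, 7, 8, 7 and 9 of the 10 had a peak in UUO (WT, then ACSS2-/-) and 4 and 5 in control, while the sums overlapped. C1qb had H3K9ac in all UUO libraries and in no control, as did 0.092% of all genes. C1qa, C1qb and Tyrobp had longer H3K9ac in every UUO library (0.247% of all genes) and none had shorter (30.6%). Itgam was without a peak in every library. The part of macrophages in the values of the Tnf cluster and Tnfrsf1b was not tested. Of genes of B cells, Cd79a had a peak in all libraries, with H3K9cr over 2594 to 2968 bp in control. In UUO, H3K9cr covered 2907 and 2939 bp of it in WT and 2262 and 2667 bp in ACSS2-/-. Its H3K9ac was shorter in every UUO library, with 1905 to 2563 bp against 2720 and 2716 bp in control, as for 30.6% of all genes. Cd79b had H3K9cr over 325 and 1026 bp in WT UUO and 979 and 0 bp in ACSS2-/- UUO and none in control, and Ms4a1 and Pax5 had no peak in any library. The part of B cells in the values of the family was not tested.

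The 4 receptors of B cells and antigen presenting cells were Cd40, Tnfrsf17, Tnfrsf13b and Tnfrsf13c, and the last pair had no peak within 3 kb of an end. Over the gene itself Tnfrsf13b had H3K9cr in 3 UUO libraries (749 and 919 bp in WT and 680 bp in ACSS2-/- replicate 1), H3K9ac in ACSS2-/- UUO replicate 2 (721 bp) and no peak in control. Cd40 had H3K9cr over 1507 and 949 bp in WT UUO, 955 and 0 bp in ACSS2-/- UUO, 520 and 370 bp in WT control and 1184 and 1240 bp in ACSS2-/- control. Peaks at Tnfrsf17 (BCMA) lay mostly at its far end, where an end of Snx29 lies, and H3K9cr covered 858 to 1267 bp in UUO and 1229 to 2060 bp in control.

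The decoy receptors bind a ligand without a death signal. Tnfrsf11b (osteoprotegerin) had H3K9cr over 635 and 477 bp in ACSS2-/- control and 397 bp in ACSS2-/- UUO replicate 1, with no peak in any WT library. H3K9ac was found in ACSS2-/- control alone (373 bp). Tnfrsf22, Tnfrsf23 and Tnfrsf26, a cluster on chromosome 7, had short peaks in most libraries. Tnfrsf23 was 1 of the 3 members with higher mean covered length in H3K9ac than in H3K9cr of UUO, with 710 and 415 bp of H3K9ac in WT UUO and 475 and 594 bp in ACSS2-/- UUO, and 381, 436, 463 and 570 bp of H3K9cr. The others were Tnfrsf1b and Ltbr, whose H3K9ac covered 2223 and 2332 bp in WT UUO and 2091 and 2951 bp in ACSS2-/- UUO. None of the 3 differed beyond the spread of the libraries.

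Of the receptors of bone, epithelium and nerve, Tnfrsf12a (Fn14), the TWEAK receptor, had long peaks in all libraries. H3K9cr covered 4426 and 4350 bp in WT UUO, 4354 and 3974 bp in ACSS2-/- UUO, 3437 and 3695 bp in WT control and 4674 and 3374 bp in ACSS2-/- control, which overlapped. H3K9ac was shorter in every UUO library, with 3229 and 3692 bp in WT and 3089 and 4352 bp in ACSS2-/- against 4617 and 5264 bp in control, but the groups overlapped with a window of 1 kb, over the gene itself and with shortened lists. Ends of Cldn6, Hcfc1r1 and Thoc6 lie in its windows. Tnfrsf19 (TROY) had no H3K9cr peak in control, and H3K9cr covered 0 and 542 bp in WT UUO and 474 and 854 bp in ACSS2-/- UUO. Its H3K9ac covered 0 and 342 bp in WT UUO and 421 and 0 bp in ACSS2-/- UUO. In control H3K9ac covered 671 bp in ACSS2-/- and was without a peak in WT. Edar had H3K9ac over 984 bp in WT control and 1697 bp in ACSS2-/- control and none in UUO. Within the windows, 3 H3K9cr controls had a peak near the start (352, 1177 and 508 bp) and 3 UUO libraries had one at the far end (399, 607 and 660 bp). Over the gene itself all 8 H3K9cr libraries had peaks, with 718, 2114, 4367 and 2352 bp in control and 1809, 1297, 2582 and 1278 bp in UUO, which overlapped. Tnfrsf11a (RANK) had H3K9cr over 1115 to 2238 bp in UUO and 439 to 1813 bp in control.

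Genes that carry the signal of these receptors were marked almost everywhere. Of 39 adaptors, kinases, ubiquitin ligases and NF-κB genes, 37 to 39 had a peak in each library, where 55.0% to 64.3% of all genes did. None had a peak in all libraries of one group and none of the other, with the exception of Nfkb2 in H3K9ac of ACSS2-/- against WT UUO (0.949% of all genes). In H3K9cr, 2 genes (Tnfaip3 and Rel) had longer covered length in every UUO library than in any control (1.62% of all genes), 2 (Bid and Tab1) had shorter (9.02%), and the median difference was 52 bp. Tnfaip3, an inhibitor of NF-κB, was covered over 3119 and 2864 bp in WT UUO, 3192 and 2756 bp in ACSS2-/- UUO and 1791 to 2024 bp in control. For H3K9ac of UUO against control 1 was longer and 17 were shorter, against 0.247% and 30.6% of all genes. In H3K9cr of UUO kidneys 14 were shorter in ACSS2-/- than in WT and 3 were longer, against 16.8% and 5.62% of all genes, with a median difference of -268.5 bp. In H3K9ac of the same kidneys 1 was shorter and 11 were longer, against 1.68% and 19.0% of all genes. In H3K9cr of control kidneys 5 were shorter and 17 longer, against 3.32% and 26.2%. H3K9cr was longer than H3K9ac in UUO for 6 and shorter for 2, against 6.47% and 1.15%.

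Fibroblasts and injured tubular cells are further sources of TNF family signals. Of 6 fibroblast markers, 6 and 4 had an H3K9cr peak in WT UUO, 5 and 2 in ACSS2-/- UUO and 1 to 3 in control. The summed covered length was 7733 and 6822 bp in WT UUO, 9300 and 900 bp in ACSS2-/- UUO and 1117 to 4108 bp in control. Pdgfra, Pdgfrb or Dcn was the most covered, and Col1a1 and Col3a1 had no H3K9cr peak in any control. In H3K9ac the sum was 3939 and 4183 bp in WT UUO, 5124 and 11407 bp in ACSS2-/- UUO and 4194 and 5332 bp in the controls. Of 5 markers of injured tubules, 5 and 4 had an H3K9cr peak in WT UUO, 3 and 3 in ACSS2-/- UUO and 2 to 3 in control, with sums of 9352 and 8289 bp, 8008 and 2547 bp, and 1664 to 2464 bp. Lcn2, Sox9 or Vcam1 was the most covered gene, and Havcr1 had a peak in H3K9cr of WT UUO replicate 1 alone. For H3K9ac the sums were 4655 and 5903 bp in WT UUO, 3275 and 8944 bp in ACSS2-/- UUO and 2264 and 3347 bp in the controls. ACSS2-/- UUO replicate 2 of H3K9cr had the lowest sum of the 4 UUO libraries for both lists, and the part of these cells in the values of the family was not tested.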

How the data were processed

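Per the methods and the labels, the authors cleaned the reads, aligned them with Bowtie2 to mm10, removed duplicates and reads of low mapping quality, and called peaks with MACS2; ChIPseeker was used for annotation. No version is given in the sources used here. The paper shows input signals for each group, but whether input served as a control for peak calling is not stated there. The authors deposited lists that hold the positions of peaks, 1 list per library, with no score, so that depth could not be given.

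Genes and ends came from the RefSeq GRCm38.p6 table, which has the coordinates of mm10. Within 500 bp of a gene end lay 31.7% to 66.6% of the peaks of a list, against 12.0% to 14.9% after a shift of 20000 bp. An overlap of 1 bp counted as a peak. Covered length was compared by an exact two-sided permutation test over libraries with Benjamini-Hochberg adjustment over all autosomal protein-coding genes, each member locus standing for its genes; no p was computed for the family. Start and far end were told apart with the strand of the RefSeq promoter table, which held 34 members.

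Named were the loci with a peak in all libraries of one group and none of the other, the 5 with the largest rise and fall of H3K9cr in UUO, the 5 with the largest difference in each direction between marks (3 in favour of H3K9ac), and the members best known in kidney injury; other members named with values were chosen after these were seen. The members, the gene lists and the rules were chosen with earlier results of these data known. The signalling list held 39 autosomal genes. A marker gene of the B cell list, and the counts and sums over that list, are not reported here. Alternatives were another window, a larger overlap, fewer peaks, single genes, libraries left out and replicate numbers as a block. Tools were bedtools 2.31.1, matplotlib 3.10.9, SciPy 1.17.1, pandas 2.3.3, numpy 2.4.6 and Python 3.11.15, and the steps were tested on simulated data.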

Additional observations from a re-analysis of the deposited data

Results flagged for a closer look

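In 48 groups of 4 libraries, the lowest or highest library was compared with the rest, and chance would mark about 1 in 20 groups. For Tnfrsf12a, H3K9cr of ACSS2-/- UUO replicate 2 covered 3974 bp, far below the other 3 UUO libraries (4350 to 4426 bp). For Ltbr, H3K9cr of WT control replicate 2 covered 2570 bp, far above the other 3 controls (2252 to 2297 bp). Of this length, 491 bp was a separate peak at the far end. At the start this library covered 2079 bp, less than any other H3K9cr control. For 2 receptors H3K9cr was longer in both UUO libraries than in either control in WT and shorter in ACSS2-/-. Each contrast rests on 2 libraries against 2. Of all genes 15.4% were longer so in WT and 33.8% shorter so in ACSS2-/-, and the share that met both was not counted. These differences between the genotypes were not tested. The mean covered length of Tnfrsf10b was 348 bp longer in UUO than in control in WT, and the difference in ACSS2-/- was -457 bp. For Cd40 the difference was 783 bp in WT and -734.5 bp in ACSS2-/-.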

How the results depend on the processing

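The covered length of named loci that separated the groups was recomputed under each alternative. It kept direction and separation in 415 cases, kept direction with overlapping groups in 49 and changed direction in 5. For Tnfsf10 (ACSS2-/- against WT, H3K9cr, UUO) -227.5 bp became 18 bp with a 1 kb window and 20.5 bp with an overlap of 50%. For Tnfrsf23 (UUO against control, H3K9ac) -263.5 bp became 32 bp with lists of equal length, and for Tnfrsf1a (UUO against control, H3K9cr) -1404 bp became 65.75 bp at the start alone and 818.5 bp over the gene itself. Where it is not shown by the alternative itself, the cause was not tested. Of the counts and differences over the family, 221 values stayed alike, 34 counts were larger and 8 smaller by over 1.5 times, 2 differences moved beyond the spread and 1 changed sign.

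With lists of equal length, the difference in loci with a peak between UUO and control went from -2 to 3.25 in H3K9ac and that between marks from 5.5 to 0. Loci with peaks in all UUO libraries and no control went from 0 to 2 in H3K9cr (Tnfrsf1b and Tnfsf13b), and those with the opposite pattern in H3K9ac from 1 to 0. Between genotypes, loci with peaks in ACSS2-/- alone went from 1 to 0 for H3K9ac in UUO and for H3K9cr in control, those in WT alone from 3 to 1 for H3K9cr in UUO and from 0 to 1 in control. With the longest 50% of peaks, the difference between genotypes for H3K9cr in UUO went from -4 to -0.5 and loci in WT alone from 3 to 1 there, from 0 to 1 in control and from 1 to 0 for H3K9ac, where ACSS2-/- alone also went from 1 to 0. Tnfrsf1b then had H3K9cr peaks in all UUO libraries and no control, and 2 loci had H3K9ac in controls alone. At the start alone, scored for the 31 loci with a strand and compared with their own main values, Cd27 was the 1 locus in UUO alone for H3K9ac and the 1 in ACSS2-/- alone for H3K9cr in control, each from 0, and the differences stayed within the spread. Tnfrsf10b and Tnfrsf11b have no strand and were not scored. For H3K9cr in UUO, the loci in WT alone at the start included Tnfrsf18 and no longer Tnfsf14, as over the gene itself. With a 1 kb window Fasl was no longer in WT alone for H3K9ac (0 loci).

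Over the gene itself, an alternative added after seeing the data, 1 locus had H3K9cr in ACSS2-/- alone in UUO (Tnfrsf17; 0.334% of all genes), 2 did in control (0.813%), and 1 had H3K9cr without H3K9ac in UUO (Edar; 0.595%), as over the whole gene with flanks. With genes counted on their own, Lta was in UUO alone for H3K9cr. Without the 4 lists that carry another number, 1 locus had H3K9cr in all UUO libraries and no control (Tnfrsf19, or 2 genes with Lta; 0.581% of all genes), 1 had H3K9ac so (Fasl; 0.247%) and 2 had the opposite (3.35%), 6 had H3K9cr in WT UUO alone (3.45%) and 1 had H3K9cr without H3K9ac (2.51%). H3K9ac between genotypes has no value in that setting.

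Leaving out 1 library at a time gave 0 to 1 loci in UUO alone for H3K9cr and 1 to 2 in control alone for H3K9ac. Between genotypes it gave 0 to 2 in ACSS2-/- alone and 3 to 6 in WT alone for H3K9cr in UUO, 1 to 2 and 1 to 3 for H3K9ac in UUO, and 1 to 3 and 0 to 1 for H3K9cr in control. Between marks 0 to 1 had H3K9cr alone. With permutation within genotype the smallest p was 0.0556 and the lowest adjusted p 0.397.

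Whether the replicate numbers identify mice is not known. Deviations of libraries with the same number in the labels correlated between -0.4 and 0.25. By the number in the names of the peaks, the correlation between marks in ACSS2-/- UUO was 0.4, and the other groups that share both numbers gave -0.08 to 0.24. A block by these numbers, added after seeing the data, gave a difference of 4.0 loci between marks in UUO (3 pairs). With a replicate block by the labels the difference in loci was 5.0 for UUO against control in H3K9cr, -0.5 in H3K9ac (2 pairs), -4.0, 0 and 1.0 between genotypes (H3K9cr in UUO, H3K9ac in UUO, H3K9cr in control) and 5.5 between marks, and no call was made with it. Peaks hold no height and depth is unknown, so a missing peak may be a peak below the threshold.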

Other observations

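The X-linked members of the family were outside the rule of selection. Cd40lg, the CD40 ligand of T cells, and Eda2r had no peak within 3 kb of an end in any library. Eda, the ligand of Edar, had H3K9cr over 678 bp in WT control replicate 2, 766 and 642 bp in ACSS2-/- control and 771 bp in WT UUO replicate 2, and H3K9ac over 383 bp in WT control, 1464 bp in ACSS2-/- control and 660 bp in ACSS2-/- UUO replicate 2. Eda thus had a peak in 5 of 6 control libraries and in 2 of 8 UUO libraries.

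Promoters of the family hold few CpG. Their median was 8.5 in 300 bases (34 genes), against 14.0 over all genes with a promoter sequence. Genes with a peak in all libraries had a median of 22.0 over all genes and 7.0 in the family (15 genes, 2 to 43). Genes without any peak had 2.0 over all genes and 7.5 in the family (4 genes, 6 to 12). A peak within 3 kb of an end need not reach the promoter, and at Tnfrsf17, marked in all libraries, none did. With 4 unmarked genes these medians cannot tell whether the difference that holds over all genes is absent in the family.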
